A study of Mus musculus with 8 samples.

Results

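The genes described here are 42 genes of later germ cell life, which act in meiosis, in the piRNA pathway or in the testis after primordial germ cells (PGCs) have settled in the gonad. They were chosen by name, with earlier results of these data known, so their shares against all genes are no independent evidence. Where several probe sets named 1 gene only, the gene was read from the brightest of them, by its average on the 8 arrays. By this rule 39 of the 42 were measured, out of 18193 genes in all, and Nanos2, Tdrd6 and Fkbp6 were not analysed here. The 39 genes have 47 probe sets on the array, and 8 of them (Asz1, Dazl, Dmc1, Msh5, Piwil4, Septin4, Tdrd7 and Tex13b) have more than 1.

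The arrays hold 4 groups of 2 samples each. Tfap2c-/- PGC-like cells (PGCLCs) and control PGCLCs were made in culture from embryonic stem cells (ESCs) through an epiblast-like state, with BMP4, BMP8b, SCF, LIF and EGF, and were sorted for the Blimp1mVenus reporter. Tfap2c-/- ESCs and control ESCs are the starting cells. All 4 groups carry the Blimp1mVenus reporter. The control lines are Tfap2c flox/flox lines derived from blastocysts, so their alleles are floxed but intact, and the Tfap2c-/- lines were made from these parental lines by transient transfection of a pGK-Cre plasmid. Per the methods there were 2 such pairs of lines. The labels number the samples of a group 1 and 2 and call them biological replicates, without naming the line of each.

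Germ cells carry a program that is silent in most other cells. Meiosis uses its own cohesin, a chromosome axis built on it, the synaptonemal complex that zips homologues together, and enzymes that make and repair programmed DNA breaks. The piRNA pathway loads small RNAs onto PIWI proteins, with a set of tudor domain proteins as scaffolds, and keeps transposons silent. In ESCs and early PGCs many promoters of these genes are held silent by DNA methylation or by a repressor complex that contains E2F6 and the E-box binding pair MGA and MAX. Tfap2c encodes the transcription factor AP-2 gamma, which PGCs need to be maintained.

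Promoter sequences are shown for 6 of the genes that are named below and whose promoters hold motifs that those factors are known to bind. They come from RefSeq on build GRCm38.p6, in which 36 of the 42 genes have a promoter entry, with 48 windows in all. Tex11, Nxf3, Piwil2, Spo11, Dmrt1 and Tdrd6 have none. Each stretch has 100 bases and is written 5′ to 3′ on the strand of its gene. Capitals mark every match, on either strand, to the E-box CACGTG, to the E2F core GCGGGAA or to the AP-2 core GCCNNNGGC, where N is any base. The stretches are chr5:138280329-138280428 on the plus strand for Stag3, chr8:84872158-84872257 (plus) for Syce2, chr10:88459487-88459586 (plus) for Sycp3, chr13:112652311-112652410 (minus) for Ddx4, chr3:95559577-95559676 (plus) for Hormad1 and chr11:87578289-87578388 (plus) for Septin4. The Stag3 stretch runs from position -180 to -81 relative to its start site, and the other 5 cover the 100 bases before theirs.
Stag3: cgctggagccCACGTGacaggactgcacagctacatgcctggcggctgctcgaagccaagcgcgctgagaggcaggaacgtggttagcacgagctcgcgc
Syce2: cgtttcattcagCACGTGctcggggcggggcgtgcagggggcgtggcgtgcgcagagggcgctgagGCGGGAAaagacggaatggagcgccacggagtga
Sycp3: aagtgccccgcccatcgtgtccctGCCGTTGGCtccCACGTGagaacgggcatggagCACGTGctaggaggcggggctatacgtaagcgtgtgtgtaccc
Ddx4: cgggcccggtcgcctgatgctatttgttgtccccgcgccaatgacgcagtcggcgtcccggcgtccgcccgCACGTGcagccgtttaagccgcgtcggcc
Hormad1: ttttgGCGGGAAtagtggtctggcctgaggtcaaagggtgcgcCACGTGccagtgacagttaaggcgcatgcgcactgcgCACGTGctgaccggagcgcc
Septin4: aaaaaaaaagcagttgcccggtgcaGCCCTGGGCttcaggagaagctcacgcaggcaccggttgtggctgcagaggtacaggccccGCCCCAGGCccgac

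The stretches of Sycp3 and Hormad1 hold 2 E-boxes each, those of Stag3, Syce2 and Ddx4 hold 1, and that of Septin4 holds none but has 2 AP-2 cores. Each stretch was picked to hold an E-box, or for Septin4 an AP-2 core. Another Syce2 window holds no E-box, and another Septin4 window no AP-2 core. E2F cores of Stag3, Sycp3 and Ddx4 lie outside their stretches. Over whole windows, 250 bases before to 50 after a start site, the E-box was present in 17 of the 48 windows of these genes (35.4%), against 7.84% of the 21263 windows of protein-coding genes and 7.15% of all 32851 windows. The 17 windows belong to 14 genes, which are Ddx4, Fkbp6, Hormad1, Mael, Mov10l1, Piwil1, Slc25a31, Stag3, Syce2, Sycp1, Sycp3, Taf7l, Tdrd1 and Tdrd9. The E2F core was present in 11 windows (22.9%) of 10 genes, against 5.95% of coding windows and 4.6% of all windows. The AP-2 core, by contrast, was present in 8 windows (16.7%) of 6 genes, against 19.9% of coding windows and 16.6% of all windows. These 6 genes are Dmc1, Rec8, Septin4, Sycp3, Tdrd7 and Tex101. Their log2 differences between Tfap2c-/- and control PGCLCs, described below, were 0.43, -0.58, -1.64, 0.54, -0.53 and -0.16 in that order. Of the 6, Septin4 alone passed the test used there. The TATA box TATAAA was present in 10.4% of the windows of these genes, against 12.6% and 13.6%. Each motif was counted on its own on both strands, and matches to different motifs may overlap. Windows of 1 gene overlap in part, so they are not independent. The windows of these genes held a median of 19 CpG pairs, against 13 in coding windows and 7 in all windows. A match describes the letters of these windows and is not a measured binding site.

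**Figure D1:**
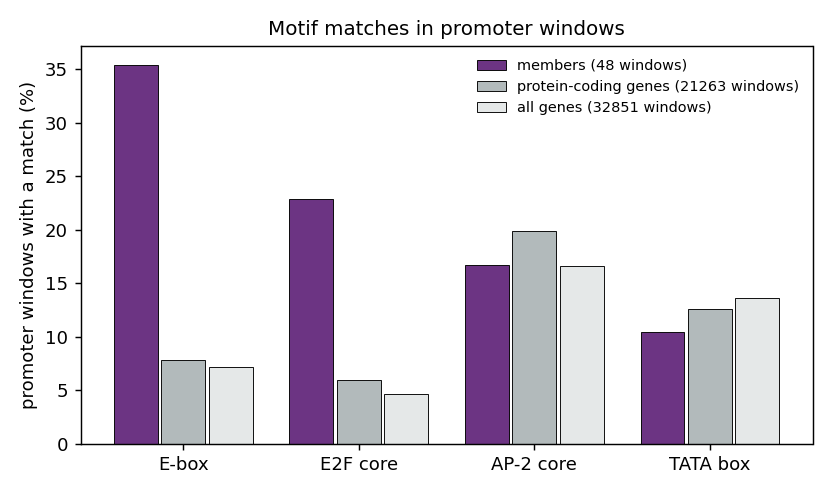
Share of RefSeq promoter windows (percent, vertical axis) that hold a match to each of 4 motifs, for the later germline genes, protein-coding genes and all genes. The bars of the later germline genes stand at 35.4% for the E-box and 22.9% for the E2F core, above both other sets, while their AP-2 core bar at 16.7% lies below that of coding genes at 19.9%.

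Levels are the deposited log2 expression values, so a difference of 1 is a doubling. The array medians lay between 3.47 and 3.55, and a gene is called at background here when it was below the median of the array on all 8 arrays. The labelled cell types were checked by marker lists. The mean of the 6 measured PGC markers was 7.49 and 7.58 in Tfap2c-/- PGCLCs, 9.02 and 9.34 in control PGCLCs, 6.77 and 6.76 in Tfap2c-/- ESCs and 6.94 and 7.61 in control ESCs, and none of the 6 was at background. Means of the 7 pluripotency markers lay between 9.46 and 10.54, but Klf4 among them was at 8.52 and 9.48 in Tfap2c-/- PGCLCs, 6.91 and 6.65 in control PGCLCs, 10.87 and 11.11 in Tfap2c-/- ESCs and 11.03 and 10.98 in control ESCs. The list of testis somatic cells averaged 3.36 to 3.75, that of primitive endoderm 2.89 to 3.61, and those of mesoderm, neural cells and trophoblast 4.0 to 4.89. These means hide single genes. Krt8 of the trophoblast list lay between 6.94 and 8.70 in PGCLCs, against 5.57 to 6.05 in ESCs. Of the neural list, Pax6 lay between 4.49 and 5.56, against 2.86 to 3.47, but Nes between 4.97 and 5.12, against 5.03 to 5.22. In control PGCLCs the endoderm genes Gata6 and Pdgfra were at 4.63 and 3.08 and at 4.66 and 3.12. Tfap2c itself was at 8.52 and 8.85 in Tfap2c-/- PGCLCs, 9.84 and 10.29 in control PGCLCs, 7.28 and 6.47 in Tfap2c-/- ESCs and 7.88 and 9.14 in control ESCs. Where its probe set lies relative to the deleted part is not given in the sources used here, so these values do not check the deletion. The array of control PGCLC sample 2 stood apart from the others in its Gapdh signal, which was 0.95 higher at the 3′ than at the 5′ end, against 0.31 to 0.52. Its 27 poly-A control probe sets averaged 7.25, the highest of the arrays. They averaged 6.81 and 6.19 in Tfap2c-/- PGCLCs, 5.39 in control PGCLC sample 1 and 5.05 to 5.48 in ESCs.

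Of the 39 genes, 14 were above the array median on all 8 arrays, 10 were at background on all 8, and 15 were mixed. Among all genes 56.8% were above on all arrays and 30.6% were at background. The 14 were the regulators Dazl, Dmrt1 and Stra8, the cohesin subunits Stag3 and Rec8, the central element proteins Syce1 and Syce2, the recombination genes Dmc1, Mlh3 and Msh5, the tudor gene Tdrd5, and Aurkc, Fmr1nb and Tex14. The 10 were Piwil1, Piwil4, Tdrd1 and Tdrd9 of the piRNA pathway, Sycp1 and Sycp2 of the synaptonemal complex, Spo11 and Msh4 of recombination, and the testis genes Taf7l and Tex101. On every array at least 15 of the 39 were above the array median. Syce2 lay between 8.55 and 10.30. Some steps of meiosis had a partner above background and a partner at it. Dmc1, the recombinase that repairs meiotic breaks, lay between 4.99 and 6.05, while Spo11, which makes the breaks, lay between 2.12 and 2.79. Msh5 lay between 4.12 and 4.66, while Msh4, its partner in a heterodimer, lay between 1.95 and 2.80. The other, dimmer Msh5 probe set lay between 3.28 and 3.98, on both sides of the array medians. These levels come from different probe sets, whose brightness per transcript differs, so they say where each gene lies against the array median and do not order the genes. Of the 34 measured genes with a promoter window, 13 had an E-box, and 5 of these 13 were at background and 2 above the median on all arrays, while of the 21 without an E-box 4 were at background and 11 above on all.

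**Figure D2:**
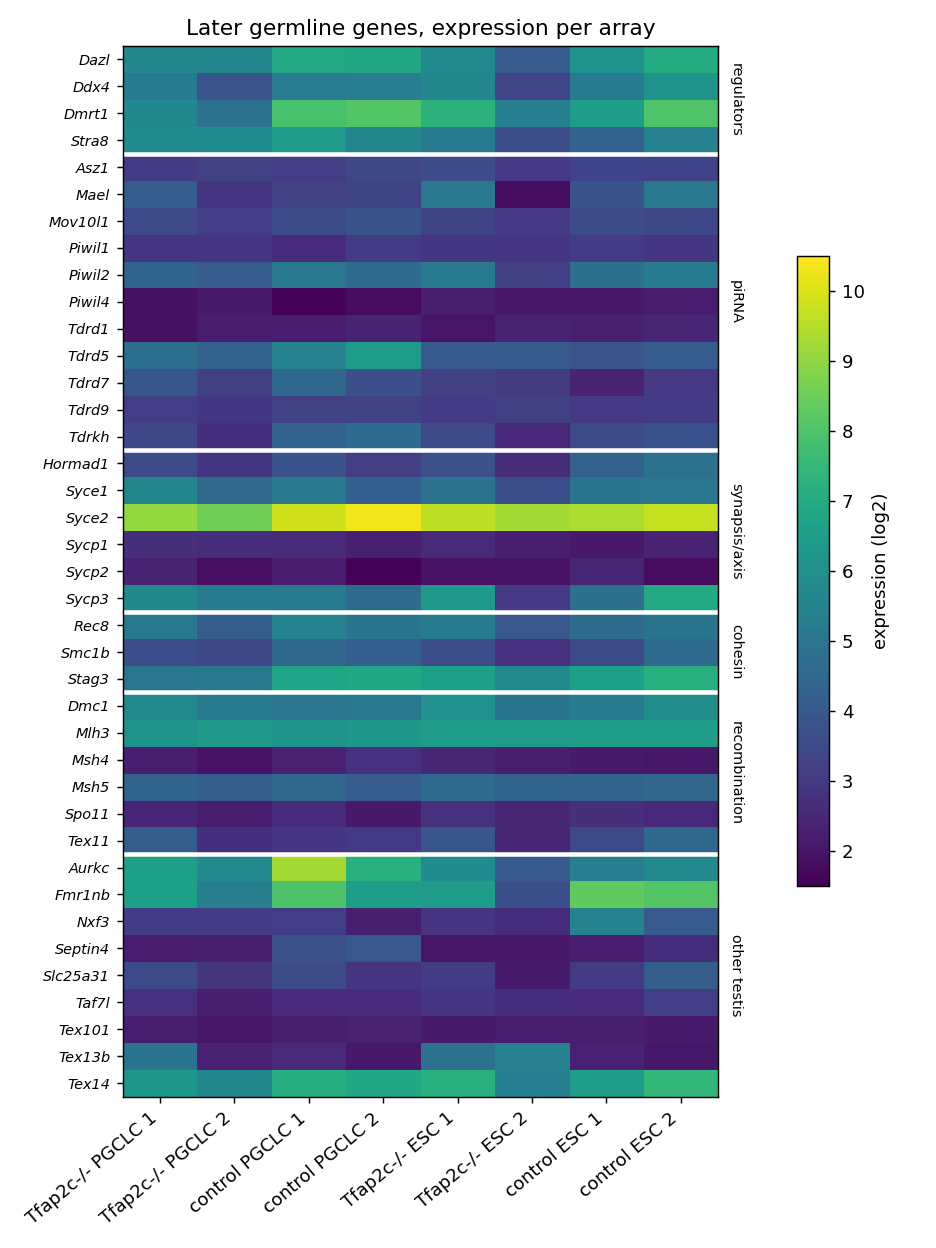
Expression (log2, colour scale) of the 39 measured later germline genes on each of the 8 arrays, with genes grouped by role from regulators at the top to other testis genes at the bottom. The row of Syce2 runs between 8.55 and 10.30, and the second Tfap2c-/- ESC array is dark for genes such as Mael, at 1.80, and Sycp3, at 3.01.

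The comparison of Tfap2c-/- PGCLCs with control PGCLCs asks which of these genes depend on Tfap2c in germ cell-like cells. Stag3, Syce2 and Septin4 were lower in Tfap2c-/- PGCLCs at an adjusted p under 0.05 (limma over all genes), and no member was higher. This is 3 of 39 genes, against 1.8% of all genes called lower, while 1.29% of all genes were called higher. Since RNA was pooled over sorted cells, fewer cells that express a gene and less RNA per cell cannot be told apart. Stag3, the cohesin subunit found in meiotic chromosomes, was at 5.02 and 5.14 in Tfap2c-/- PGCLCs, against 6.75 and 6.90 in control PGCLCs. Samples of 1 group lay close together and the groups did not overlap, with a difference of -1.75 (SE 0.30, adjusted p = 0.0262, limma). Syce2, a central element protein of the synaptonemal complex, was at 9.06 and 8.55 in Tfap2c-/- PGCLCs, against 9.86 and 10.30 in control PGCLCs, a difference of -1.27 (SE 0.23, adjusted p = 0.0316, and 0.0928 in a fit of the 4 PGCLC arrays alone). Its groups did not overlap. In ESCs, where it was at 9.64 and 9.28 in Tfap2c-/- and at 9.39 and 9.70 in control samples, they did. Septin4, a septin of the sperm tail annulus, was at 2.18 and 2.24 in Tfap2c-/- PGCLCs, against 3.74 and 3.96 in control PGCLCs, a difference of -1.64 (SE 0.18, adjusted p = 0.00524). Control PGCLCs were the only samples with Septin4 above the array median, and its other probe set differed by -1.59. The Septin4 call held whichever sample was left out. The Stag3 call was lost when any 1 of the 4 PGCLC samples was left out, with an adjusted p of 0.119 and 0.142 when the first or second Tfap2c-/- PGCLC sample was dropped, and of 0.079 and 0.183 when the first or second control was. The Syce2 call was lost without any PGCLC sample or either control ESC sample, with adjusted p from 0.0502 to 0.226. Septin4 was the only member called without control PGCLC sample 2, whose array stood apart, and likewise without Tfap2c-/- PGCLC sample 1. Without control PGCLC sample 2 the differences were -1.67 for Stag3 and -1.05 for Syce2. Markers of the cell state moved in the same comparison. Of the 6 PGC markers 2 were called lower in Tfap2c-/- PGCLCs, Dppa3 (difference -4.28, adjusted p = 0.0413, limma) and Kit (-1.91, adjusted p = 0.00513), and the median difference of the 6 was -1.14. Of the 7 pluripotency markers Klf4 was called higher (2.22, adjusted p = 0.00944), and their median difference was 0.25. The part of these cell states in the members' differences was not tested.

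**Figure D3:**
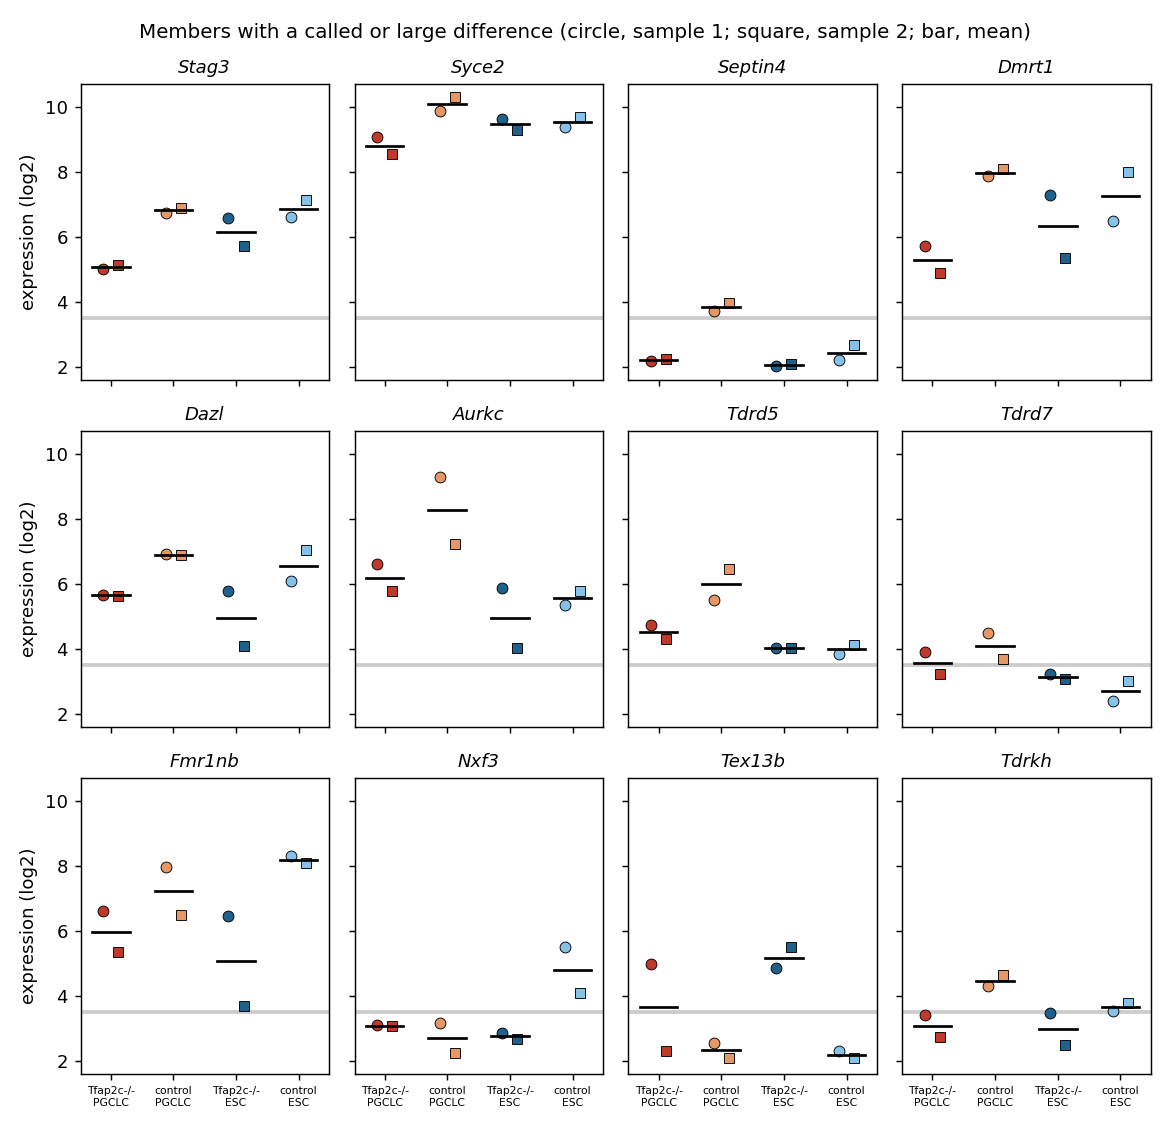
Expression (log2, vertical axis) of 12 later germline genes in each sample of the 4 groups, with circles for sample 1, squares for sample 2, bars for group means and a grey band for the array medians. Stag3, Syce2 and Septin4 separate Tfap2c-/- PGCLCs from control PGCLCs with little spread, whereas Aurkc spans 9.30 to 7.23 in control PGCLCs alone.

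Among the germ cell regulators, all 4 measured genes had a mean below that of controls, with a median difference of -1.03, but none passed the test. Dmrt1, a transcription factor needed for germ cell fate in the testis, was at 5.71 and 4.88 in Tfap2c-/- PGCLCs, against 7.88 and 8.08 in control PGCLCs. This difference of -2.68 (SE 0.68, adjusted p = 0.0882, limma) was the largest of the list in PGCLCs. The groups did not overlap, and the gene was called when Tfap2c-/- ESC sample 1 or sample 2 was left out of the fit (adjusted p = 0.0452 and 0.0451), and in a fit of the 4 PGCLC arrays alone (adjusted p = 0.046). Dazl, an RNA-binding protein of germ cells, was at 5.67 and 5.64 in Tfap2c-/- PGCLCs, against 6.93 and 6.88 in control PGCLCs. Here the difference was -1.25 (SE 0.52, adjusted p = 0.301), and -1.40 on the gene's other probe set. The spread used in the test includes that of the ESC samples, where Dazl varied more, and with the 4 PGCLC arrays alone the adjusted p was 0.0455. Ddx4, the germ cell RNA helicase, was at 5.17 and 3.86 in Tfap2c-/- PGCLCs and at 5.30 and 5.36 in control PGCLCs (difference -0.82). Stra8, which germ cells switch on at meiotic entry, was at 5.87 and 5.84 in Tfap2c-/- PGCLCs and at 6.46 and 5.60 in control PGCLCs, so these groups overlapped.

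None of the 11 measured piRNA pathway genes passed the test in PGCLCs. The 2 with the largest differences were Tdrd5 and Tdrkh. Tdrd5, a tudor protein of germ granules, was at 4.75 and 4.30 in Tfap2c-/- PGCLCs, against 5.51 and 6.47 in control PGCLCs, a difference of -1.47 (SE 0.32, adjusted p = 0.057, limma). Tdrkh, a mitochondrial tudor protein used in piRNA trimming, was at 3.42 and 2.75 in Tfap2c-/- PGCLCs, against 4.31 and 4.64 in control PGCLCs, a difference of -1.39 (SE 0.35, adjusted p = 0.0882), and it was called when either Tfap2c-/- ESC sample was left out. Both genes had groups that did not overlap. Tdrd5 was called without control PGCLC sample 1 (difference -1.95, adjusted p = 0.0231), and its difference was -0.99 (adjusted p = 0.254) without control PGCLC sample 2. The PIWI genes gave smaller differences. Piwil2, the only PIWI gene here above background, was at 4.39 and 4.10 in Tfap2c-/- PGCLCs and at 5.10 and 4.66 in control PGCLCs (difference -0.64), and Piwil1 and Piwil4 were at background. The other 6 genes, Asz1, Mael, Mov10l1, Tdrd1, Tdrd7 and Tdrd9, differed by -0.53 to 0.17.

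Of the remaining meiotic genes, the cohesin subunits Smc1b and Rec8 differed by -0.82 and -0.58 without passing the test, in the direction of Stag3. None of the other 5 genes of the synaptonemal complex and its axis passed the test. They differed by -0.25 for Hormad1 to 0.54 for Sycp3, and Sycp3, an axis protein, was at 5.71 and 5.21 in Tfap2c-/- PGCLCs, against 5.16 and 4.69 in control PGCLCs. The 6 recombination genes had a median difference of 0.01. Among the other testis genes, Aurkc, the Aurora kinase of meiotic cells, was at 6.62 and 5.77 in Tfap2c-/- PGCLCs, against 9.30 and 7.23 in control PGCLCs. The groups did not overlap, but control PGCLC sample 2 lay closer to Tfap2c-/- PGCLC sample 1 than to the other control. The difference of -2.07 (SE 0.77, adjusted p = 0.24, limma) ranged from -3.10 to -1.03 when 1 sample was left out. Tex14, a protein of the bridges between germ cells, was at 6.25 and 5.63 in Tfap2c-/- PGCLCs, against 7.12 and 6.88 in control PGCLCs (difference -1.06, adjusted p = 0.434). Tex13b, an X-linked testis gene, was at 4.98 and 2.32 in Tfap2c-/- PGCLCs, against 2.57 and 2.09 in control PGCLCs. Its difference of 1.32 rests on Tfap2c-/- PGCLC sample 1, since it was -0.02 without that sample and 2.65 (adjusted p = 0.0387) without sample 2.

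Over the whole list, 27 of 39 genes had a lower mean in Tfap2c-/- PGCLCs than in control PGCLCs (69.2%, against 56.6% of all genes) and 12 a higher one (30.8%, against 43.3%), with a median of -0.23 against -0.04 over all genes. Groups did not overlap for 15 genes on the lower side, where 27.9% of all genes lay, and for 4 on the higher side, where 19.5% of all genes lay. By the study's fold rule, a difference of group means over 1.5, which is a description without a test, Aurkc, Dmrt1, Septin4 and Stag3 were lower and none was higher, against 0.89% of all genes lower and 1.06% higher. The list was chosen with earlier results of these data known, so these shares are no independent evidence. At an unadjusted p under 0.05 there were 10 members (25.6%), against 15.7% of all genes.

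**Figure D4:**
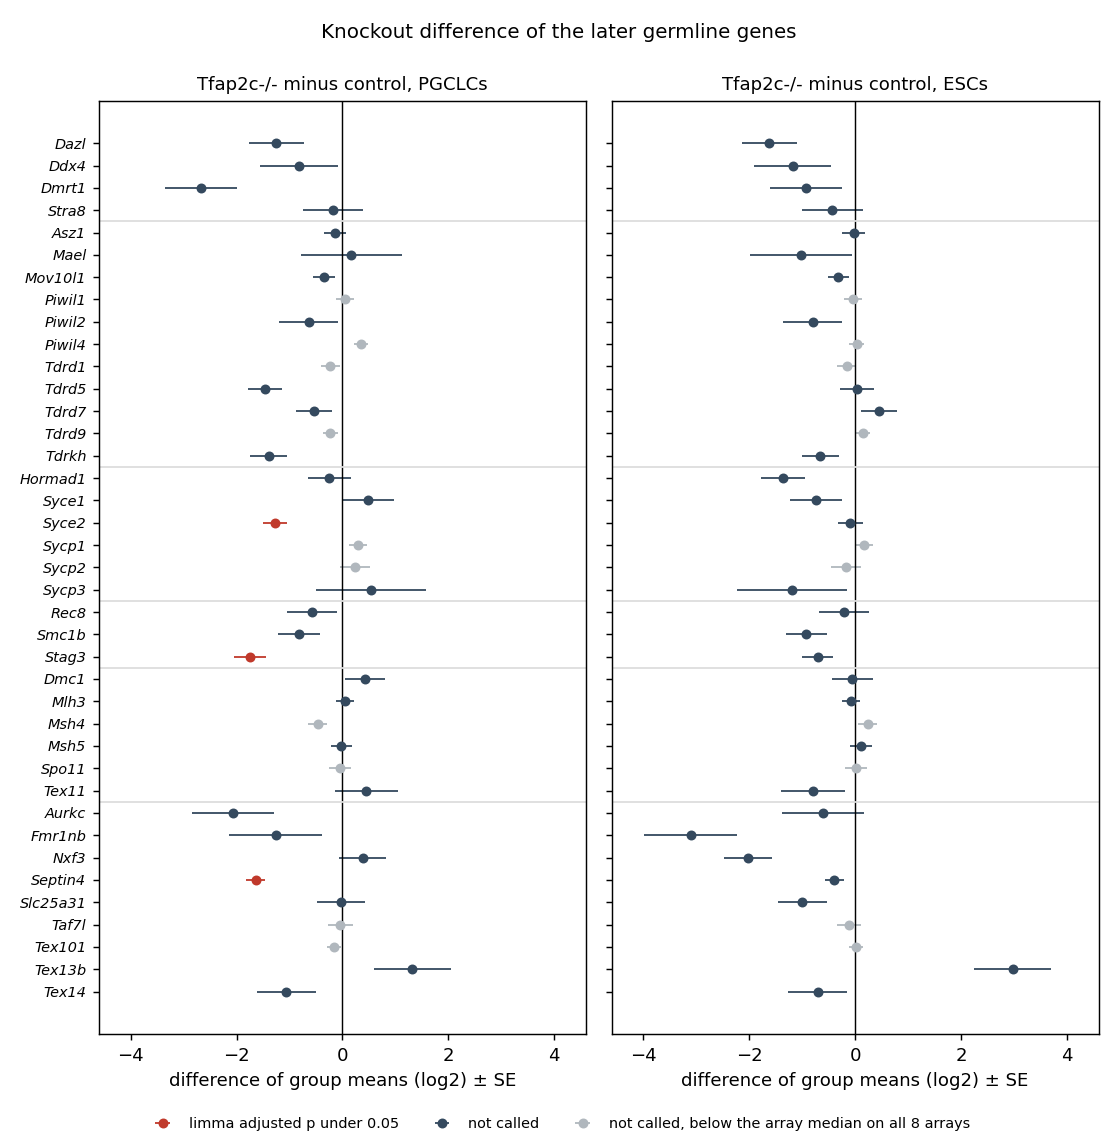
Difference of group means (log2, horizontal axis), Tfap2c-/- minus control, for the 39 later germline genes in PGCLCs (left) and ESCs (right), with bars for the standard error of the limma fit and red for an adjusted p under 0.05. In PGCLCs the called genes Stag3, Syce2 and Septin4 have short bars, and in ESCs Fmr1nb at -3.11 and Tex13b at 2.98 lie furthest out with long ones.

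In ESCs the same genes were compared between Tfap2c-/- and control lines. No member passed the test, and 0% of all genes did (limma). At an unadjusted p under 0.05 there were 7 members (17.9%), against 2.5% of all genes (455 genes). By the fold rule Fmr1nb, Nxf3 and Dazl were lower, against 0.121% of all genes, and Tex13b was higher, against 0.011%, which is 2 genes of 18193. The study called genes on these arrays by this same rule. Since the list was chosen with earlier results of these data known, these shares are no independent evidence. Fmr1nb, an X-linked gene expressed mainly in testis, was at 6.47 and 3.69 in Tfap2c-/- ESCs, against 8.31 and 8.08 in control ESCs. The knockout samples lay far from each other and both below the controls, and the difference of -3.11 (SE 0.88) was -4.50 without Tfap2c-/- ESC sample 1 and -1.73 without sample 2. Nxf3, an X-linked gene of the nuclear RNA export factor family, was at 2.86 and 2.69 in Tfap2c-/- ESCs, against 5.51 and 4.10 in control ESCs (difference -2.03, SE 0.45), and control ESCs were the only samples with Nxf3 above the array median. Tex13b was at 4.85 and 5.50 in Tfap2c-/- ESCs, against 2.31 and 2.09 in control ESCs (difference 2.98, SE 0.73), and its other probe set differed by 0.72. Dazl was at 5.80 and 4.09 in Tfap2c-/- ESCs, against 6.08 and 7.05 in control ESCs (difference -1.62, SE 0.52), a difference of -2.47 without Tfap2c-/- ESC sample 1 and of -0.76 without sample 2. The other Dazl probe set differed by -1.31 and the mean of both by -1.47, neither past the fold rule. Of these 4 genes, Fmr1nb, Nxf3 and Tex13b are on the X chromosome, as are Taf7l and Tex11, which differed by -0.11 and -0.80.

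Groups did not overlap for 10 genes on the lower side in ESCs, against 11% of all genes, and for 4 on the higher side, against 11.8%. The ESC lower set was Dazl, Fmr1nb, Hormad1, Mlh3, Mov10l1, Nxf3, Septin4, Stag3, Syce1 and Tdrkh. Stag3 was at 6.58 and 5.73 in Tfap2c-/- ESCs, against 6.60 and 7.13 in control ESCs, a difference of -0.71 (SE 0.30). Hormad1, which marks chromosome axes that have not synapsed, was at 3.74 and 2.69 in Tfap2c-/- ESCs, against 4.31 and 4.85 in control ESCs, a difference of -1.36 (SE 0.41). In all, 29 members had a lower mean in Tfap2c-/- ESCs than in control ESCs (74.4%, against 50.4% of all genes) and 10 a higher one (25.6%, against 49.6%), and the median was -0.32 against 0 over all genes. This median was 0.02 without Tfap2c-/- ESC sample 2.

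The lower levels in Tfap2c-/- ESCs were concentrated in that sample. It was the lowest of the 4 ESC samples in 25 of the 39 genes (64.1%), against 35.9% of all genes, and the lowest by more than 1 in 12 genes (30.8%), against 0.643% of all genes. No other ESC sample was the lowest by more than 1 in any member. The 12 were Aurkc, Dazl, Ddx4, Dmrt1, Fmr1nb, Hormad1, Mael, Piwil2, Syce1, Sycp3, Tex11 and Tex14. Sycp3 was at 6.35 and 3.01 in Tfap2c-/- ESCs, against 4.82 and 6.93 in control ESCs. Mael, a piRNA pathway protein of germ granules, was at 5.09 and 1.80 in Tfap2c-/- ESCs, against 3.85 and 5.09 in control ESCs. Ddx4 was at 5.66 and 3.38 in Tfap2c-/- ESCs, against 5.24 and 6.17 in control ESCs. In each of the 3 the first knockout sample lay within the range of the controls and the second lay alone below all others. Dmrt1 was at 7.30 and 5.36 in Tfap2c-/- ESCs, against 6.50 and 8.01 in control ESCs, with the same order of samples. In Tfap2c-/- ESC sample 2 the median of the members was 3.01, and 15 of 39 were above the array median, against 3.92 and 23 in Tfap2c-/- ESC sample 1, and 3.85 and 21 and 4.47 and 24 in the control ESC samples. On its array the poly-A controls averaged 5.05, the lowest of the 8 arrays, against 5.23 to 5.48 on the other ESC arrays, and the Gapdh 3′ to 5′ difference was 0.39, against 0.31 to 0.38. The part of the array in this pattern was not tested, nor was that of the ESC line, which the labels do not name for any sample. Of the 9 of these 12 genes with a promoter window, 4 hold an E-box (Ddx4, Hormad1, Mael and Sycp3) and 5 do not.

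**Figure D5:**
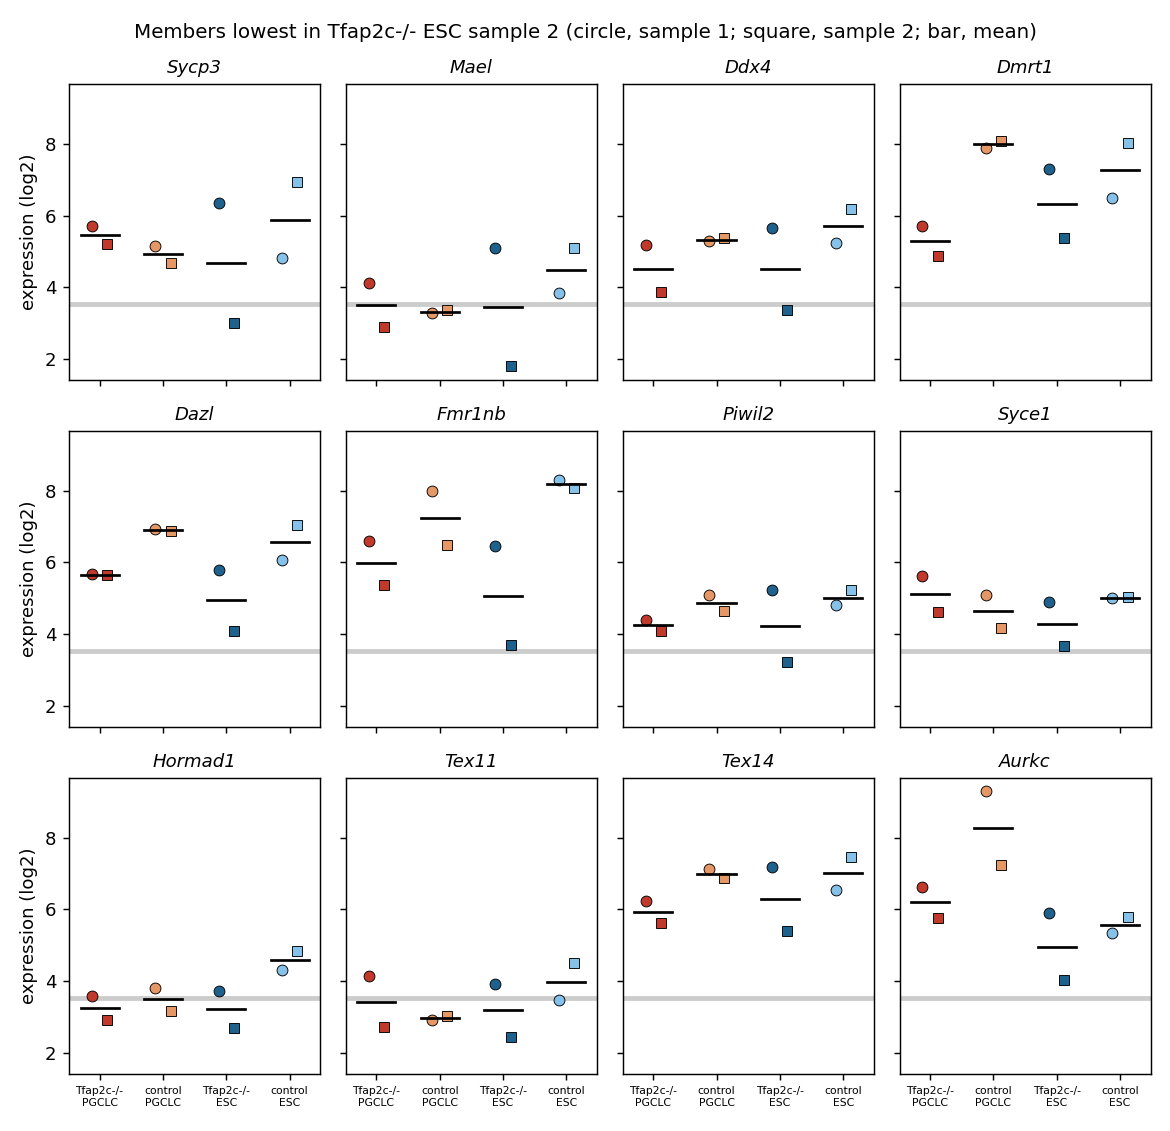
Expression (log2, vertical axis) in each sample of the 12 later germline genes for which Tfap2c-/- ESC sample 2 was the lowest of the 4 ESC samples by more than 1, with circles for sample 1, squares for sample 2, bars for group means and a grey band for the array medians. The genes were picked for this pattern, and the square of Tfap2c-/- ESCs reaches 1.80 for Mael and 3.01 for Sycp3.

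A weaker form of this pattern was present in PGCLCs. Tfap2c-/- PGCLC sample 2 was the lowest of the 4 PGCLC samples in 22 of 39 genes (56.4%), against 31.9% of all genes, but by more than 1 only in Ddx4 and Fmr1nb, against 0.357% of all genes. Fmr1nb was at 6.60 and 5.36 in Tfap2c-/- PGCLCs, against 7.98 and 6.50 in control PGCLCs (difference -1.26, adjusted p = 0.579, limma). The median of the members was 4.11 and 3.22 in Tfap2c-/- PGCLCs and 4.31 and 3.96 in control PGCLCs. The number above the array median was 23 and 17 in Tfap2c-/- PGCLCs and 23 and 22 in control PGCLCs.

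The difference between the knockout effects, PGCLCs minus ESCs, was tested in the same fit, and no member passed, against 0.148% of all genes (27 genes). At an unadjusted p under 0.05 there were 6 members (15.4%), against 9.01% of all genes, which were Msh4, Nxf3, Septin4, Stag3, Syce2 and Tdrd5. Thus none of the genes called in PGCLCs was shown to respond differently in ESCs. For Septin4 the difference between the effects was -1.25 (SE 0.25, adjusted p = 0.156, limma), for Syce2 -1.19 (SE 0.33, adjusted p = 0.315) and for Stag3 -1.03 (SE 0.42, adjusted p = 0.523). It was 2.40 for Nxf3 (SE 0.64, adjusted p = 0.297). The median over the members was 0.07, against -0.04 over all genes.

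Control PGCLCs were then set against control ESCs, to see where these genes stand once the cells have become germ cell-like. Septin4, Tdrd5 and Tdrd7 were higher in control PGCLCs (3 of 39, against 4.64% of all genes) and Nxf3 was lower (1 of 39, against 3.72%). Tdrd5 was at 5.51 and 6.47 in control PGCLCs, against 3.86 and 4.12 in control ESCs, a difference of 2.00 (SE 0.32, adjusted p = 0.0117, limma). Septin4 was at 3.74 and 3.96 in control PGCLCs, against 2.22 and 2.68 in control ESCs, a difference of 1.40 (SE 0.18, adjusted p = 0.0053). Tdrd7, a tudor protein of germ granules, was at 4.49 and 3.69 in control PGCLCs, against 2.41 and 3.01 in control ESCs, a difference of 1.38 (SE 0.34, adjusted p = 0.0489). Its other probe set differed by 0.21, and the mean of both by 0.79 (adjusted p = 0.0376). This call was lost whichever of the 8 samples was left out, with adjusted p from 0.0553 to 0.233. Nxf3 was at 3.18 and 2.26 in control PGCLCs, against 5.51 and 4.10 in control ESCs, a difference of -2.09 (SE 0.45, adjusted p = 0.0333). Its adjusted p became 0.0524 and 0.178 when the first or second control PGCLC sample was dropped, 0.117 when the first control ESC sample was, and 0.0591 when either Tfap2c-/- PGCLC sample was. That of Tdrd5 became 0.0843 and 0.0545 when the first or second control ESC sample was dropped, and Septin4 was called in every such fit.

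By the fold rule Aurkc and Tdrd5 were higher in control PGCLCs (1.93% of all genes) and Nxf3 was lower (1.56%). Aurkc was at 9.30 and 7.23 in control PGCLCs, against 5.34 and 5.80 in control ESCs, a difference of 2.69 (SE 0.77) that did not pass the test (adjusted p = 0.0749, limma). In the remaining groups Aurkc was at 5.89 and 4.03 in Tfap2c-/- ESCs. There Tdrd5 was at 4.02 and 4.04 and Septin4 at 2.03 and 2.10. Tdrd7 was at 3.90 and 3.22 in Tfap2c-/- PGCLCs and at 3.22 and 3.09 in Tfap2c-/- ESCs, and Nxf3 was at 3.10 and 3.09 in Tfap2c-/- PGCLCs. Groups did not overlap for 9 genes on the higher side (25.3% of all genes) and for 9 on the lower side (28.5%), which is 23.1% of the members on each side. The median over the members was -0.04, against -0.03 over all genes. Dazl, Ddx4, Dmrt1 and Stag3, which were above the array median in control ESCs, differed by 0.34, -0.37, 0.72 and -0.04 between control PGCLCs and control ESCs. The comparisons of knockout with control PGCLCs and of control PGCLCs with control ESCs share the control PGCLC samples. Side by side, Septin4 differed by -1.64 and 1.40, Tdrd5 by -1.47 and 2.00, Aurkc by -2.07 and 2.69, and Stag3 by -1.75 and -0.04.

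Wider lists of related genes gave few calls. Over all genes, 1.8% were called lower and 1.29% higher in Tfap2c-/- PGCLCs against control PGCLCs. In control PGCLCs against control ESCs, 4.64% of all genes were called higher and 3.72% lower. Of 17 other piRNA and germ granule genes 15 were measured, and 1 was lower in Tfap2c-/- PGCLCs and none higher. This was Tdrd12, a tudor gene of the piRNA amplification cycle, at 7.01 and 6.74 in Tfap2c-/- PGCLCs, against 7.83 and 7.92 in control PGCLCs (difference -0.99, SE 0.20, adjusted p = 0.0413, limma). Of 38 other meiosis genes 26 were measured, and 1 was lower and none higher. This was Sgo2a, the shugoshin that guards centromeric cohesin in meiosis, at 8.75 and 8.66 in Tfap2c-/- PGCLCs, against 9.77 and 9.74 in control PGCLCs (difference -1.05, SE 0.18, adjusted p = 0.0271). No gene passed among 13 spermatogonial, 15 spermatid and 12 oocyte genes, of which 4, 10 and 7 were at background on all arrays. Of 16 repressors of germline genes, Uhrf1, which brings DNA methyltransferase to replicated DNA, was higher in Tfap2c-/- PGCLCs (9.84 and 9.94, against 8.69 and 8.29 in control PGCLCs, difference 1.41, SE 0.18, adjusted p = 0.0103) and none was lower. The calls of Tdrd12 and Sgo2a were lost without any 1 of the 4 PGCLC or 2 control ESC samples (adjusted p = 0.0811 to 0.262 and 0.0527 to 0.176), and that of Uhrf1 without control PGCLC sample 2 or either Tfap2c-/- PGCLC sample (0.0502 to 0.0891). In control PGCLCs against control ESCs, Dnd1 (2.12), Ddx25 (1.30), the meiosis genes Six6os1 (2.15, as 4930447C04Rik on the array) and Sgo2a (0.83), and Foxo1 (0.85) were higher, and Uchl1 (-0.94) and Uhrf1 (-1.67) were lower. With 1 sample left out, the calls of Dnd1 and Uhrf1 held and each of the other 5 was lost at least once. The low position of Tfap2c-/- ESC sample 2 extended to the wider meiosis list, whose mean was 5.19 and 4.78 in Tfap2c-/- ESCs, against 5.03 and 5.38 in control ESCs.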

How the data were processed

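RNA from 8 samples, 2 in each of 4 groups, was hybridized to Affymetrix mouse genome arrays, 1 array per sample. The deposited table holds log2 expression values that the authors normalized across arrays. RMA is given in the methods and GCRMA in the submitters' processing notes, with no version, and either pulls dim genes together, so differences near background are compressed. Of 45101 probe sets, 34945 name 1 gene in GEO's annotation of the array, 932 name several and 9160 none or are unlisted, and 64 are manufacturer controls. No further normalization was applied and no value column was left out. The number of arrays limits the precision, and p-values measure only the spread between the 2 samples of each group.

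For each of 18193 genes the probe set with the highest mean was used. The 4 group means were fitted with limma 3.58.1 in R 4.3.3 (lmFit, then eBayes with a trend, 4 residual and 3.67 prior degrees of freedom), p was adjusted over all genes (Benjamini-Hochberg), and a gene was called at an adjusted p under 0.05. Tests were two-sided. The fold rule took differences over 1.5. Errors printed beside differences are standard errors of this fit. Values were tabulated with Python 3.11.15, pandas 2.3.3 and NumPy 2.4.6 and drawn with Matplotlib 3.10.9. The procedure was tested on simulated data. Values in every sample are given for members called or past the fold rule in any comparison and for those the study names for the arrays. Other members with values were picked after these were seen. The members, lists and tests were chosen with earlier results of these data known, so they are no independent evidence. Of the wider lists, genes called in a comparison are named.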

Additional observations from a re-analysis of the deposited data

Results flagged for a closer look

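Msh4 and Tdrd9 drew attention because their knockout differences ran in opposite directions in the 2 cell types, with every sample of a group on 1 side. Msh4 was at 2.25 and 1.95 in Tfap2c-/- PGCLCs, against 2.34 and 2.80 in control PGCLCs (difference -0.47), and at 2.45 and 2.26 in Tfap2c-/- ESCs, against 2.14 and 2.09 in control ESCs (difference 0.24). The effect in PGCLCs minus that in ESCs was -0.71 (adjusted p = 0.466, limma). Tdrd9 was at 3.14 and 2.97 in Tfap2c-/- PGCLCs, against 3.28 and 3.29 in control PGCLCs (difference -0.23), and at 3.09 and 3.22 in Tfap2c-/- ESCs, against 3.0 and 3.05 in control ESCs (difference 0.14). The effect in PGCLCs minus that in ESCs was -0.36 (adjusted p = 0.688, limma). Neither difference between cell types passed the test, and both genes lay below the array median on all 8 arrays.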

How the results depend on the processing

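The number of members called in Tfap2c-/- PGCLCs against control PGCLCs was 3, and 1 (Stag3) when probe sets with the suffix a, s or x were left out. Septin4 and Syce2 were not measured there, since all their probe sets carry such a suffix. It lay between 1 (Septin4, without control PGCLC sample 2 or Tfap2c-/- PGCLC sample 1) and 5 (adding Dmrt1 and Tdrkh, without either Tfap2c-/- ESC sample) when 1 of the 8 samples was left out, where a group left with 1 sample was assumed to vary like the others. The median difference over the members, -0.23, was -0.58 over the 27 members above the array median on 2 or more arrays, and -0.35 to -0.15 with 1 sample left out. The fold rule passed 4 members in PGCLCs and 5 to 8 with 1 sample left out (8 without Tfap2c-/- PGCLC sample 1), and 4 in ESCs and 3 to 13 (13 when Tfap2c-/- ESC sample 1 was omitted, and 9 when control ESC sample 1 was). In ESCs and for the difference between the knockout effects, 0 members were called with any 1 sample left out, and the medians ranged from -0.58 to 0.02 and from -0.30 to 0.18. In control PGCLCs against control ESCs 4 members were called, and 1 (Septin4, without control ESC sample 1) to 3 with 1 sample left out (2 without control ESC sample 2 or any 1 PGCLC sample), with medians from -0.14 to 0.09. Tex13b in PGCLCs turned to -0.02 without Tfap2c-/- PGCLC sample 1 and was 2.65 without sample 2. With a gene's probe sets averaged, Dazl (-1.47) no longer passed the fold rule in ESCs. Among values of single genes, 419 kept their direction and side of the threshold, 74 no longer passed, 9 newly passed and 1 changed sign. Quantile normalization and a fit without the variance trend lost the Tdrd7 call (adjusted p = 0.055 in both), and the fit without the trend also lost Tdrd12 in PGCLCs (adjusted p = 0.0502). A fit of the 4 PGCLC arrays alone lost Syce2 (adjusted p = 0.0928) and Tdrd12 (0.0721) and newly called Dmrt1 (0.046) and Dazl (0.0455). The call of Foxo1 in control PGCLCs against control ESCs was lost with a gene's probe sets averaged (adjusted p = 0.055) or without suffixed probe sets (0.364). The alternatives for the wider lists were chosen after seeing the data. A replicate block on the sample numbers left 3 members called in PGCLCs, 0 in ESCs and 0 for the difference between effects, and gave 5 in control PGCLCs against control ESCs, adding Aurkc (adjusted p = 0.032). The numbers were not taken as pairing, since the labels do not name the line of each sample. Deviations of same-numbered samples correlated from -0.3327 (Tfap2c-/- and control ESCs) to 0.3918 (Tfap2c-/- and control PGCLCs), which does not settle whether they are paired. Signal over background limits the rest, since 10 of the 39 members were at background on all 8 arrays.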

Other observations

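Several genes outside the 42 shared the low position of Tfap2c-/- ESC sample 2, and were picked for it after their values were seen. Stk31, a germ cell kinase with a tudor domain, was at 4.84 and 3.33 in Tfap2c-/- ESCs, against 5.11 and 5.52 in control ESCs. Stk31 was also lower in PGCLCs, at 4.6 and 3.23 in Tfap2c-/- PGCLCs, against 6.18 and 5.83 in control PGCLCs. This PGCLC difference of -2.09 was past the fold rule but did not pass the test (adjusted p = 0.107, limma). Its PGCLC groups did not overlap. Gpat2, a mitochondrial protein tied to piRNA production, was at 4.27 and 3.24 in Tfap2c-/- ESCs, against 4.76 and 5.12 in control ESCs. Rec114, needed for meiotic DNA breaks, was at 5.78 and 4.23 in Tfap2c-/- ESCs, against 5.68 and 6.36 in control ESCs. Sohlh2, a transcription factor of spermatogonia, was at 5.98 and 4.12 in Tfap2c-/- ESCs, against 5.99 and 6.10 in control ESCs. In each of the 4 the second knockout ESC sample was the lowest of the ESC samples. Between Tfap2c-/- and control PGCLCs, Gpat2, Rec114 and Sohlh2 differed by -1.04, -0.2 and 0.13, and none of these passed the test.

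The DNA methyltransferase gene Dnmt3b was at 9.53 and 9.27 in Tfap2c-/- PGCLCs, against 8.28 and 7.88 in control PGCLCs, a difference of 1.32 that did not pass the test (adjusted p = 0.0777, limma). Its cofactor gene Dnmt3l was at 8.96 and 7.99 in Tfap2c-/- PGCLCs, against 6.51 and 4.01 in control PGCLCs, a difference of 3.22 (adjusted p = 0.0585, limma). The Dnmt3l controls lay far apart (SD 1.77), and the lower one was control PGCLC sample 2, whose array stood apart. The groups did not overlap for either gene.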
